A study of Mus musculus with 8 samples.

Results

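The genes described here are 10 genes whose products hold back or accompany signalling through the ERK kinases: the dual-specificity phosphatases Dusp1, Dusp2, Dusp4, Dusp5 and Dusp6, the Sprouty genes Spry1 and Spry2, the Sprouty-related genes Spred1 and Spred2, and the early response gene Ier2. They were taken by gene symbol from the platform annotation, which gave 22 of the 45037 probe sets on the array, and 19 of these passed the filter on dim probe sets. All 10 genes were among the 11885 genes tested. The study compared Fraction B pro-B cells, an early B-cell progenitor of bone marrow gated as B220+ CD43+ HSA+ BP-1-, from Rag1-cre;Men F/F mice (menin-deficient, 4 mice) and from Men F/F mice without Cre (control, 4 mice). All 8 mice carried floxed Men1 and were 2 to 3 weeks old. Each mouse gave 1 Affymetrix array of amplified RNA, with deposited values on a log2 scale.

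ERK is the last kinase of the RAS, RAF, MEK and ERK chain, through which growth factor and antigen receptors reach the nucleus. ERK activity raises the transcription of genes whose products switch the pathway off again, so that the RNA of several feedback genes is commonly used as a readout of recent ERK activity. Dual-specificity phosphatases remove phosphate from the MAP kinases themselves, while Sprouty and Spred proteins act further up, at the level of RAS and RAF. In B-cell progenitors the pathway lies below the pre-B-cell receptor and below cytokine receptors.

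Cre is named for Rag1, a gene active in lymphoid progenitors, and only menin-deficient mice carried it, so what Cre does and what loss of menin does cannot be told apart. Men1 RNA was 8.15 ± 0.28 in menin-deficient and 9.54 ± 0.26 in control arrays (log2, mean ± SD, n = 4 each), which is -1.39 as a log2 difference (limma adjusted p = 0.00391). The lowest value of the table is 2.08, and between 42.8% and 43.2% of probe sets on each array lay within 0.1 of it, so values near it hold no order. The median tested gene differed by 0.11 between the groups. Setting the median tested gene of every array to the same value (centring) takes 0.13 from every difference. By Xist and Eif2s3y levels, 2 of 4 menin-deficient and 1 of 4 control mice were male. The number of arrays limits the precision. Pro-B markers were high in both groups, with a list mean of 14.2 to 14.3 in menin-deficient and 14.1 to 14.2 in control arrays. Of the 15 tested 4 rose (Dntt, Cd93, Igll1 and Blnk) and Rag1 fell. Over all tested genes 16.2% were higher and 5.17% lower. After centring Cd93, Igll1 and Blnk were no longer called. Ebf1, a B-lineage transcription factor, ranged from 14.1 to 14.2 in menin-deficient and from 14.0 to 14.3 in control arrays on its brightest probe set, while another of its probe sets differed by -0.75 (limma adjusted p = 0.0147 over every probe set). Enpep, which encodes BP-1 and should be absent from the surface of these cells, was measured at 10.4 to 12.2 in menin-deficient and 10.6 to 11.8 in control arrays.

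Of the 10 genes, Ier2 rose, none fell and 9 did not pass an adjusted p of 0.05 in the fit across all genes (limma, 1 probe set per gene). In the same fit 21.3% of all tested genes changed, 16.2% higher and 5.17% lower in menin-deficient cells. After centring the count for the 10 genes was the same, 1 higher and 0 lower, while over all genes the 1922 higher and 614 lower calls became 911 and 971. At an unadjusted p under 0.05, 3 of the 10 were higher and 0 lower, beside 27.4% of all tested genes higher and 8.68% lower. Their median log2 difference was 0.067, beside 0.11 over all tested genes. Array values of the 2 groups failed to overlap for 1 of the 10 genes, beside 26.3% of all tested genes.

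**Figure D1:**
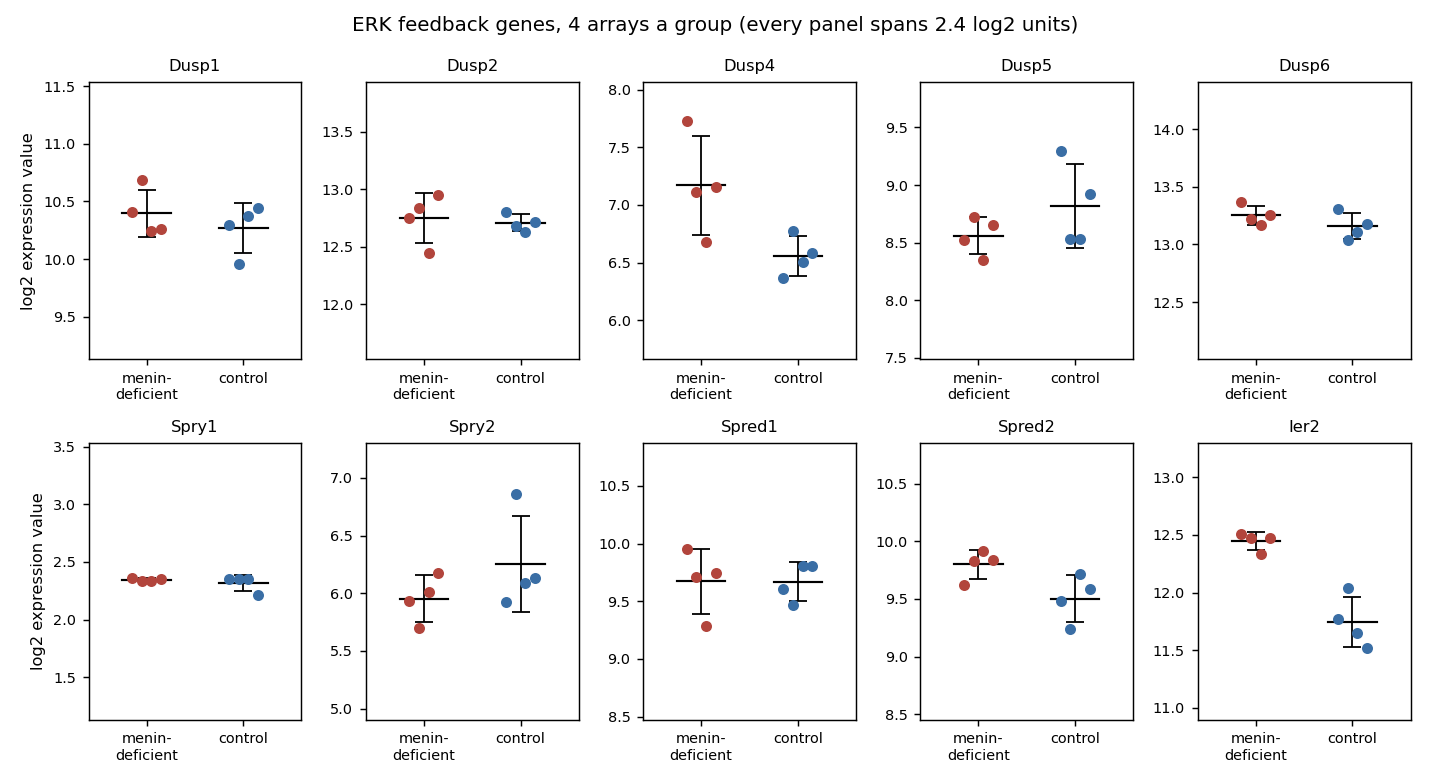
Log2 expression value (vertical axis) of each ERK feedback gene on the probe set that stands for it, with the 4 menin-deficient arrays at the left of each panel and the 4 control arrays at the right, replicates 1 to 4 in order, and the mean ± SD in black. Ier2 is the 1 panel in which the groups do not overlap, and Spry1 lies near the floor of the table.

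Ier2 encodes a nuclear protein made within minutes of growth factor stimulation. Its log2 values were 12.51, 12.47, 12.34 and 12.48 in menin-deficient replicates 1 to 4 and 11.77, 12.04, 11.65 and 11.52 in control replicates 1 to 4. Every menin-deficient array lay above every control array, and the menin-deficient arrays lay closer together (SD 0.077) than the control arrays (SD 0.22). The means of 12.45 in menin-deficient and 11.75 in control arrays differ by 0.70 (SE 0.11, 95% interval 0.44 to 0.96, limma adjusted p = 0.00725), which is 1.63-fold higher in menin-deficient cells. The difference was 0.58 after centring, with an adjusted p of 0.0192, and the gene stayed past the threshold under each of 19 alternatives, with differences of 0.58 to 0.80. It has 1 probe set on the array, so no other one checks it.

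The array values of 4 other tested genes followed those of Ier2 most closely over the 8 arrays. These were Ift57, a subunit of the intraflagellar transport complex (Pearson r = 0.990), Pwp1, a WD-repeat protein (r = 0.986), Fbxo6, an F-box subunit of a ubiquitin ligase (r = 0.986), and Ocrl, an inositol polyphosphate 5-phosphatase (r = 0.986). The group difference is part of each r. Deviations from the group means alone gave r of 0.93, 0.92, 0.90 and 0.91 for the same genes. They were picked as the highest of 11885 genes on 8 arrays and are a description only.

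Markers of other blood cells were counted in the fit of genes, in which 16.2% of all tested genes were higher and 5.17% lower. Of 8 tested T cell markers 5 rose and 0 fell, led by Thy1, Lat and Cd5, and the mean of the list was 6.93 to 7.21 in menin-deficient and 5.78 to 6.12 in control arrays. Cd3e, a defining T cell gene, was at the lowest value on all arrays, and Cd3d, Cd4, Cd6 and Cd8b1 did not pass the filter. Of 10 NK cell markers 3 rose (Ncr1, Nkg7 and Gzmb), with list means of 6.51 to 7.38 against 5.92 to 6.26 in control, the highest in menin-deficient replicate 3, and Il2rb at the lowest value. Of 10 plasmacytoid dendritic cell markers 2 rose (Ccr9 and Irf7), with means of 8.46 to 8.76 against 7.90 to 8.19 in control. Of these 10, 6 were higher and 0 lower at an unadjusted limma p under 0.05, beside 27.4% and 8.68% of all tested genes. Of 16 monocyte, macrophage and granulocyte markers 2 rose (Ccr2 by 0.60 and Lyz2 by 0.77, log2), with means of 7.80 to 8.99 in menin-deficient and 7.73 to 8.23 in control arrays. Of 4 tested plasma cell markers 2 fell and 0 rose past the threshold. The other tested markers, Prdm1 and Xbp1, differed by 0.66 and 0.13 and did not pass. Jchain fell by 2.85 and Sdc1 fell by 1.16 on the log2 scale (limma adjusted p = 0.00643 and 0.000910), and the list means of 8.17 to 8.58 in menin-deficient and 8.68 to 9.49 in control arrays did not overlap; Tnfrsf17, a plasma cell receptor, was at the lowest value. Of 11 markers of pre-B and later B cells H2-Ab1 rose by 0.38 and Il2ra fell by 0.87, with means of 9.89 to 10.4 in menin-deficient and 9.93 to 10.6 in control arrays. At an unadjusted limma p under 0.05, 1 of the 11 was higher and 4 were lower. Ms4a1 differed by -0.55 on its brightest probe set (limma adjusted p = 0.132). On another it differed by -1.41 without overlap (limma adjusted p = 0.00676 over every probe set). Of 5 erythroid and early progenitor markers none passed the limma threshold, and 2 were higher and 0 lower at an unadjusted p under 0.05. Cd3g, Lyz2 and H2-Ab1 (on its brightest probe set) were no longer called after centring, while Cd22 was then called lower (limma adjusted p = 0.0236). Before centring the other probe sets of H2-Ab1 differed by 0.85 and 0.42 (limma adjusted p = 0.00307 and 0.0626 over every probe set). The part of these cells in the rise of Ier2 was not tested. Menin-deficient replicate 3 held the lowest Ier2 value of its group, and without it the Ier2 difference was 0.74 (limma adjusted p = 0.0153). The T cell, NK cell and plasmacytoid dendritic cell list means were above all controls on every menin-deficient array. Leaving out replicate 3 therefore does not test the part of these cells. In sorted bulk RNA, a smaller or larger number of cells of a type and a change of RNA per cell cannot be told apart.

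Of the phosphatases, none of 5 passed the threshold. Dusp6, a cytoplasmic phosphatase selective for ERK and the classical feedback target of the pathway, had log2 values of 13.37, 13.22, 13.17 and 13.25 in menin-deficient and 13.31, 13.04, 13.11 and 13.18 in control arrays. The groups overlap, and both lie far above the lowest value of the table. The difference of 0.094 (SE 0.071, adjusted p = 0.383) has a 95% interval of -0.073 to 0.26. It turned to -0.032 after centring.

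Dusp2 encodes a nuclear phosphatase found mainly in blood cells. It had log2 values of 12.75, 12.84, 12.45 and 12.95 in menin-deficient and 12.80, 12.68, 12.63 and 12.72 in control arrays. The control values all lie inside the range of the menin-deficient ones. The difference was 0.040 (95% interval -0.22 to 0.30, limma adjusted p = 0.833), and -0.085 after centring. Dusp1, a nuclear phosphatase of p38, JNK and ERK that is itself an immediate early gene, had values of 10.41, 10.68, 10.24 and 10.26 in menin-deficient and 10.30, 9.96, 10.38 and 10.45 in control arrays, which overlap. Its difference was 0.13 (95% interval -0.20 to 0.46, adjusted p = 0.546), and 0.0035 after centring. Without control replicate 2 it was 0.025.

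Dusp4, a nuclear phosphatase of ERK and JNK, came nearest to the threshold among the phosphatases. It had log2 values of 7.73, 7.11, 6.68 and 7.16 in menin-deficient and 6.37, 6.78, 6.50 and 6.58 in control arrays. Menin-deficient replicates 1, 2 and 4 lie above all controls, and replicate 3 lies below control replicate 2. The difference was 0.61 (SE 0.21, 95% interval 0.11 to 1.12, unadjusted p = 0.0243, limma adjusted p = 0.0860). It passed the threshold without menin-deficient replicate 3 (0.77, adjusted p = 0.0364), with array weights (0.65, adjusted p = 0.0321) and with the stricter 60th percentile filter, under which fewer genes are tested (adjusted p = 0.0463). After centring it was 0.49 with an adjusted p of 0.147.

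Dusp5, a nuclear phosphatase selective for ERK, had log2 values of 8.52, 8.72, 8.35 and 8.65 in menin-deficient and 9.29, 8.53, 8.53 and 8.93 in control arrays. Control replicates 1 and 4 are above every menin-deficient array and control replicates 2 and 3 lie among them. The difference was -0.26 (95% interval -0.70 to 0.18, adjusted p = 0.362), and -0.10 without control replicate 1. Among the 5 phosphatases the differences ran from -0.26 for Dusp5 to 0.61 for Dusp4.

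The Sprouty and Spred genes were next compared probe set by probe set, since Spry2, Spred1 and Spred2 have several each. Fitted on every probe set that passed the filter, 1 of the 19 probe sets was higher (that of Ier2) and 1 lower, beside 15.8% of all 22200 probe sets changed, 10.8% higher and 5.01% lower. The lower one belongs to Spred1. The number of probe sets whose groups did not overlap was also 2 of 19, the same ones, beside 22.7% of all probe sets.

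**Figure D2:**
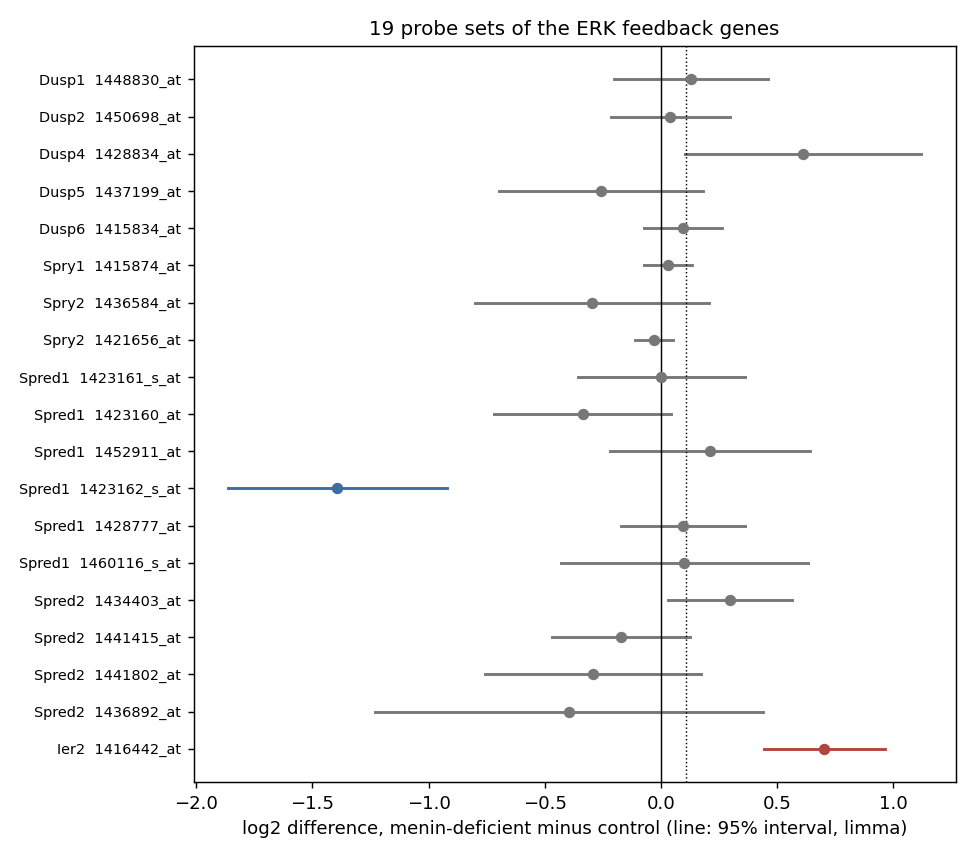
Log2 difference, menin-deficient minus control, for the 19 probe sets past the filter (points) with 95% intervals from the fit of every probe set (lines). The dotted line is the median difference of all tested genes (0.11). The Ier2 probe set (red, 0.70) and 1 of 6 Spred1 probe sets (blue, -1.39) passed an adjusted p of 0.05, and the other Spred1 probe sets lie between -0.34 and 0.21.

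Sprouty proteins block receptor tyrosine kinase signals between the receptor and RAF. Spry1 was near the floor of the table on every array, with log2 values of 2.36, 2.34, 2.33 and 2.35 in menin-deficient and 2.35, 2.35, 2.35 and 2.21 in control arrays. Values this close to the floor give no direction, and its single probe set shows only that no clear signal was measured. Spry2 had values of 5.93, 5.70, 6.01 and 6.18 in menin-deficient and 5.92, 6.86, 6.09 and 6.13 in control arrays on its better measured probe set. Control replicate 2 stands highest, and the other arrays of both groups overlap. The difference was -0.30 (95% interval -0.80 to 0.21, adjusted p = 0.360), and -0.094 without control replicate 2. The other Spry2 probe set lay between 2.11 and 2.22 in all arrays.

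Spred proteins bring neurofibromin, the RAS inactivator encoded by Nf1, to the membrane. Spred1 has 8 probe sets, of which 6 passed the filter, and these disagreed with each other. On the brightest (1423161_s_at), which stands for the gene in the fit of genes, the log2 values were 9.96, 9.71, 9.29 and 9.74 in menin-deficient and 9.61, 9.47, 9.80 and 9.80 in control arrays. These overlap, with a difference of 0.0015 (95% interval -0.36 to 0.36, limma adjusted p = 1).

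On probe set 1423162_s_at of Spred1 the log2 values were 5.95, 5.28, 5.21 and 5.36 in menin-deficient and 6.89, 7.01, 7.01 and 6.46 in control arrays. Here every menin-deficient array lies below every control array. The difference was -1.39 (SE 0.20, 95% interval -1.86 to -0.92, limma adjusted p = 0.00750 over every probe set), a 2.62-fold lower signal. It was past the threshold under each of the 16 alternatives that kept this probe set, at -1.31 to -1.56. The annotation gives this probe set, the brightest one and 1423160_at the same source transcript.

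Probe set 1423160_at of Spred1 had log2 values of 8.32, 8.05, 7.67 and 8.22 in menin-deficient and 8.19, 8.55, 8.57 and 8.29 in control arrays, a difference of -0.34 (95% interval -0.72 to 0.042, adjusted p = 0.200 over every probe set). The other Spred1 probe sets past the filter, 1452911_at, 1428777_at and 1460116_s_at, differed by 0.21, 0.095 and 0.10, none past the threshold. The remaining pair, 1443652_x_at and 1445228_at, lay at the lowest value in nearly all arrays. A lower level of Spred1 thus rests on 1 of 6 measured probe sets, of a kind (_s_at) that can match several transcripts. The brightest probe set and 1460116_s_at are of the same kind. Without the _x_at and _s_at probe sets 1423160_at stands for the gene, which then differed by -0.34 (adjusted p = 0.177 over the genes tested). Spred1 and Dusp2 lie on chromosome 2, as does Rag1, for which the Cre is named; whether DNA near the Cre carrier differs there was not tested.

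**Figure D3:**
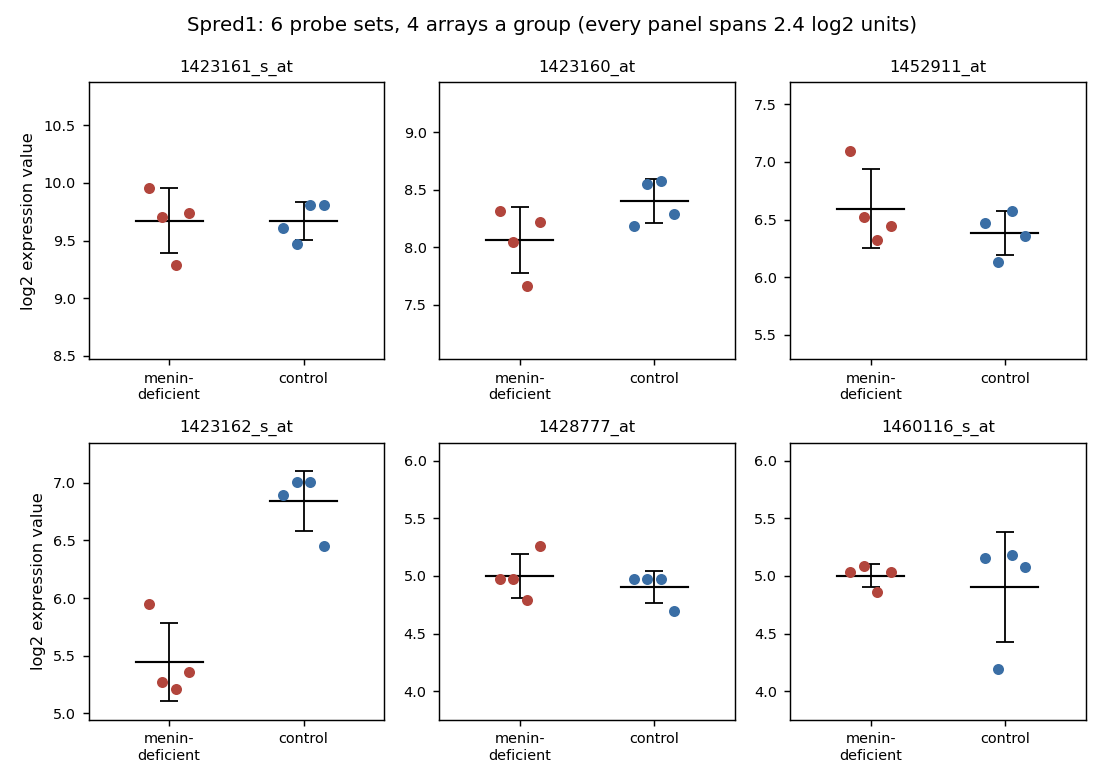
Log2 expression value (vertical axis) of the 6 Spred1 probe sets past the filter, with the 4 menin-deficient arrays at the left and the 4 control arrays at the right of each panel, replicates 1 to 4 in order, and the mean ± SD in black. On 1423162_s_at the menin-deficient arrays lie between 5.21 and 5.95 and the control arrays between 6.46 and 7.01, and on the other panels the groups overlap.

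Spred2 did not pass the threshold on any probe set. On the brightest (1434403_at) its log2 values were 9.62, 9.83, 9.91 and 9.84 in menin-deficient and 9.48, 9.24, 9.71 and 9.58 in control arrays. Menin-deficient replicates 2, 3 and 4 lie above all controls and replicate 1 lies among them. The difference was 0.30 (95% interval 0.031 to 0.56, unadjusted p = 0.0332, limma adjusted p = 0.106), and it passed with array weights (adjusted p = 0.0382). The other 3 probe sets of Spred2 past the filter differed the other way, by -0.17, -0.29 and -0.40 (adjusted p = 0.396, 0.358 and 0.490 over every probe set). The last, 1423001_at, lay at the lowest value on all arrays. With the mean of its probe sets the gene differed by -0.14 (adjusted p = 0.216), so no direction can be given for Spred2.

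The ERK feedback genes were also compared for how they varied from array to array within the groups. Of the 45 pairs among the 10 genes, 25 had a correlation above 0 of their deviations from the group means over the 8 arrays, with a median of 0.015 and a range of -0.85 to 0.77. Leaving out Spry1, which is near the floor, 20 of 36 pairs lay above 0 with a median of 0.12. Among Dusp1, Dusp2, Dusp5, Dusp6 and Spred1, grouped after the values were seen, all 10 pairs lay above 0, at 0.23 to 0.77. The highest was that of Dusp5 with Dusp6 (0.77) and the lowest that of Dusp1 with Spry2 (-0.85). Ier2 correlated at 0.45 with Dusp4, at -0.15 with Dusp6 and at -0.57 with Dusp1. The arrays share their normalization, and 8 points give wide error, so these values are a description.

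The promoters of the early response members were examined for the motifs by which serum and cAMP signals are known to act. RefSeq promoters (GRCm38.p6, 250 bases before to 50 after the gene start) were at hand for 8 of the 10 genes; Dusp4 and Ier2 had no entry. The motifs searched on both strands were the CRE (TGACGTCA, bound by CREB), its shorter form TGACG, which every CRE also holds, the AP-1 site (TGANTCA), the ETS core CCGGAAG and the CArG box of serum response factor. Those of Dusp1 and Dusp5 are printed because they held the full CRE and the CArG boxes. Capitals mark motif letters on either strand.
Dusp1, chr17:26508423-26508722, minus strand: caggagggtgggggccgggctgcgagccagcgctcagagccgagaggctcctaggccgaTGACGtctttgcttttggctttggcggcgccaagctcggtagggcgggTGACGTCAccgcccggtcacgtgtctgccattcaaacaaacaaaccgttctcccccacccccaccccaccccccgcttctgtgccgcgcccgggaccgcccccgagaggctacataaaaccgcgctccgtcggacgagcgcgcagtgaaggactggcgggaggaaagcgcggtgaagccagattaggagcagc
Dusp5, chr19:53528895-53529194, plus strand: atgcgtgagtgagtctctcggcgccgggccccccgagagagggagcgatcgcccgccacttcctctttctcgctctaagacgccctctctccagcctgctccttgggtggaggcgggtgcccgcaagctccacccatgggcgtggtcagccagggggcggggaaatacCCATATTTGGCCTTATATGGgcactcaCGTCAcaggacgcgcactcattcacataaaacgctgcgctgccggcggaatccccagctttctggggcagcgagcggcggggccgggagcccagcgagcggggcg

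In Dusp1 the CRE starts 143 bases before the gene start, with another TGACG further out. In Dusp5 the CArG boxes lie side by side, 82 and 72 bases before the start, followed by 1 copy of CGTCA, the reverse complement of TGACG. Over 32851 promoters of this length the CRE was held by 1.79%, the CArG box by 1.63%, TGACG by 20.8%, the AP-1 site by 7.81% and the ETS core by 8.86%. Dusp2 and Spred2 held 1 TGACG each, and Dusp6, Spry1, Spry2 and Spred1 held none of these motifs in this window. In the fit of genes, Dusp1 and Dusp5, which held the full CRE and the CArG boxes, did not pass the threshold. Neither did any other gene with a promoter entry, and Ier2 had none, so motifs cannot be set against calls here. These matches are letters in a sequence and show no binding.

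The genes around the feedback loop were compared in the same fit. Of 25 tested genes of the ERK cascade (32 were listed), from RAS activators to ERK-dependent kinases and transcription factors, 6 rose, 2 fell and 17 did not pass. The share changed was 32%, beside 21.3% of all tested genes (16.2% higher and 5.17% lower). Rps6ka6, a ribosomal S6 kinase, rose most (7.77 ± 0.65 in menin-deficient arrays against 2.55 in control, where it sat near the floor, so its fold is approximate). Rras, a RAS-related GTPase, rose 1.67-fold, Elk3, an ETS factor that ERK phosphorylates, rose 1.55-fold, and the kinase Araf rose 1.33-fold. Sos2, an exchange factor that loads RAS with GTP, fell 1.67-fold and Rps6ka3, another ribosomal S6 kinase, fell 1.44-fold. Map2k1 and Map2k2, the MEK kinases, differed by 0.13 and 0.19 (limma adjusted p = 0.342 and 0.328). The other probe set of Rps6ka3 differed by 0.12 and that of Elk3 next in brightness by -0.051, neither past the threshold on its own. The probe sets of Araf disagreed, at 0.40, -0.34, -0.33 and -0.051 besides the brightest, none of these past it. After centring 3 cascade genes were higher and 3 lower, and Araf was no longer called (adjusted p = 0.0788). The number changed was 5 without menin-deficient replicate 2, 5 without menin-deficient replicate 4 and 5 without control replicate 1. Over all genes, leaving out 1 array gave 1038 to 1687 higher and 372 to 568 lower, beside 1922 and 614 with every array.

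Other brakes on RAS and MAP kinases were counted in the same way. Among the 27 tested, of 34 listed, there were 7 rises, 1 fall and 19 genes not past the threshold, with a median difference of 0.060. The share changed was 29.6%, beside 21.3% of all tested genes (16.2% higher and 5.17% lower). Errfi1, an inhibitor of EGF receptor family kinases, was 8.76 ± 0.14 in menin-deficient and 7.60 ± 0.31 in control arrays (log2, SD, n = 4 each), 2.24-fold higher (limma adjusted p = 0.00492). Its other probe set lay near the floor (2.13 in menin-deficient and 2.11 in control arrays) and cannot check the rise. Dab2ip, a RAS GTPase-activating protein, rose 2.13-fold (adjusted p = 0.00232), but its other probe set differed by 0.12 and did not pass. Pea15a, which holds ERK in the cytoplasm, rose 1.84-fold on its brighter probe set and differed by 0.36 on the other (limma adjusted p = 0.169 over every probe set). Rasa3, another GTPase-activating protein, rose 1.46-fold, and the adaptor Sh2b3 rose 1.42-fold, with 0.30 and no call on its other probe set. Cblb, a ubiquitin ligase of activated receptors, fell 1.64-fold on the brightest of its probe sets, and the other two differed by -0.15 and -0.046. On the brightest of their probe sets Dusp7, Dusp9, Dusp10, Dusp16, Dusp3 and Dusp22 did not pass. Dimmer probe sets of Dusp7 (1.04), Dusp9 (1.17) and Dusp3 (-0.42) did, at limma adjusted p of 0.0151, 0.0162 and 0.0265 over every probe set. After centring 5 were higher and 2 lower, and the number changed was 5 without menin-deficient replicate 2.

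**Figure D4:**
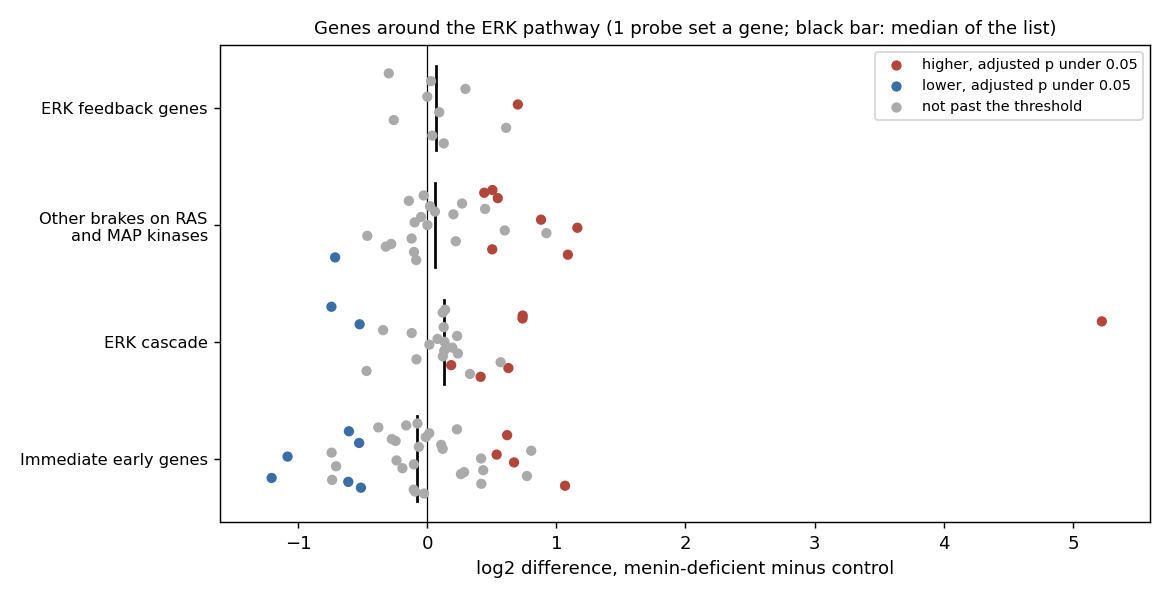
Log2 difference, menin-deficient minus control (horizontal axis), of each tested gene of 4 lists, 1 point a gene in alphabetical order from bottom to top within its list, with the list median as a black bar. Of the 10 ERK feedback genes 1 was higher and 0 lower, of 27 other brakes 7 and 1, of 25 cascade genes 6 and 2, and of 37 immediate early genes 4 and 6. Over all tested genes 16.2% were higher and 5.17% lower.

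Ier2 and Dusp1 belong to the immediate early genes, the first to respond to a stimulus, and the rest of that group went both ways. Among the 37 tested, of 40 listed, there were 4 rises, 6 falls and 27 genes not past the threshold, and after centring 3 were higher and 8 lower. Before centring the share changed was 27.0%, beside 21.3% of all tested genes (16.2% higher and 5.17% lower). The falls numbered 3 with the replicate block, and the rises 8 with sex as a covariate and 7 at a threshold of 0.10. Over all genes 344 were lower with the replicate block and 1770 higher with sex as a covariate, beside 614 and 1922 without them. Ier5, a relative of Ier2 in name, rose 1.59-fold (13.3 ± 0.14 in menin-deficient and 12.6 ± 0.16 in control arrays, log2, SD, n = 4 each), Klf10 rose 1.45-fold and the CDK inhibitor Cdkn1a rose 2.10-fold. The other probe sets of Ier5 differed by 0.46 and -0.044 and that of Cdkn1a by 0.38, none past the threshold. The Ier5 probe set at -0.044 lay near the floor (2.41 in menin-deficient and 2.46 in control arrays) and gives no direction. Egr3 and Egr1, zinc finger factors that respond to ERK, fell 2.30-fold and 1.53-fold (limma adjusted p = 0.00519 and 0.00538), and Nfkbia, the NF-kB inhibitor, fell 1.44-fold. Jund differed by -1.08 (limma adjusted p = 0.0393) and by -1.21 after centring (limma adjusted p = 0.0215). Fos differed by 0.77 (adjusted p = 0.109), Junb by 0.42 (adjusted p = 0.141) and Jun by -0.24 (adjusted p = 0.455). The other Jun probe set was 10.4 in menin-deficient and 9.46 in control arrays, 0.93 higher without overlap (limma adjusted p = 0.0171 over every probe set), so the Jun probe sets disagree. On the same arrays Ier2 rose, Egr1 and Egr3 fell, and Dusp6 and Dusp1 did not pass the threshold.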

How the data were processed

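The authors deposited normalized log2 values (the scale was read off their range). MAS5 and GCRMA appear in the submitters' processing notes with no version; the sources used here do not say which one the values come from. Groups and replicate numbers came from the sample titles. Of 45037 probe sets, 34945 have 1 gene symbol in the platform annotation, and only these were used. Probe sets over the 40th percentile of the array in 4 or more arrays were kept (22200). The probe set with the highest mean stood for its gene (11885 genes). The 2 groups were fitted with limma 3.58.1 in R 4.3.3 (lmFit, then eBayes) without covariates, with Benjamini-Hochberg adjustment over all genes and a threshold of 0.05, and then on every probe set in a second fit of the same form. The fit was checked on simulated data, in which it called 38.8% of changes of 0.5, 80.6% of 1 and 97.0% of 2 (log2). Of the 153 calls 9 were false. Fewer genes were changed there than passed here, so these shares need not hold for these data. Lists were described by counts only. Alternatives were quantile normalization, centring, other filters, the mean of probe sets, no _x_at and _s_at sets, trended and robust eBayes, array weights, a replicate block, sex (read from Xist and Eif2s3y) as a covariate, a threshold of 0.10, and leaving out each array. Genes named beyond the 10 are, per list, up to 6 past the threshold with the lowest p, the MEK kinases, up to 3 markers per list, and the 4 most like Ier2. Dusp3, Dusp7, Dusp9, Dusp10, Dusp16, Dusp22, Fos, Jun, Junb, Jund, Enpep, Ebf1, Blnk, Tnfrsf17, Prdm1, Xbp1, Ms4a1, Cd22 and Cd3g were added after values were seen. Members and lists were chosen with earlier results of these data known. Of the pathway genes listed, 7 cascade genes were not analysed here. Mice were separate, per the labels, and dates were not used.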

Additional observations from a re-analysis of the deposited data

Results flagged for a closer look

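In 8 of 80 groups of 4 arrays tested for the ERK feedback probe sets and the named pathway genes, 1 array stood apart from the other 3; chance flags about 1 in 20 groups. Among probe sets near the lowest value this means little, since the other 3 arrays held the same value: Spry1 was 2.21 in control replicate 4 against 2.35 in the others, the dim Spry2 probe set 2.11 in menin-deficient replicate 2 and 2.22 in control replicate 2 against 2.17, and Spred1 1443652_x_at 2.09 in control replicate 2 against 2.08. Spred1 1428777_at was 4.70 in control replicate 4 against 4.97 to 4.98 in the other controls. Spred1 1460116_s_at was 4.19 in control replicate 2 against 5.08 to 5.18. Klf10 was 10.9 in control replicate 2 against 10.8 in the other controls. Egr3 was 7.63 in menin-deficient replicate 4 against 6.90 to 7.02 in the others of its group, and below the control mean of 8.35.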

How the results depend on the processing

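Ier2 and Spred1 1423162_s_at kept their direction and call under each alternative that measured them. Of all genes, 911 were higher and 971 lower after centring, 984 and 344 with the replicate block, and 1257 higher without a filter. Leaving out 1 array gave 1038 to 1687 higher and 372 to 568 lower. The 60th percentile filter kept 8 of the 10 genes, of which 2 were higher, beside 1808 of all 9196 genes tested there. With array weights 2540 of all 11885 genes were higher, and the highest such count under any alternative was 2758. Of all 10 genes, 3 were higher with array weights (Dusp4 and Spred2 added), 2 at a threshold of 0.10, and 1 to 2 without 1 array. Of their probe sets 2 were higher with array weights and 1 to 2 without 1 array, and 0 were lower with the 60th percentile filter or without _x_at and _s_at sets, since both remove the Spred1 set. The cascade count was 5 with the replicate block and 5 to 8 without 1 array, and that of other brakes 5 to 9. Whether replicate numbers pair the arrays cannot be read from the sample titles. Deviations of same-numbered arrays correlated at -0.11, -0.31, -0.17 and 0.046. These values cannot decide it, since a shared litter or handling need not show in them. With the replicate block Ier2 had an adjusted p of 0.0348, and the fit moved no call among the 10 genes. Signs turned for differences near 0, none of them past the threshold: Dusp2 (-0.018 with quantile normalization, -0.085 centred, -0.029 to 0.14 without 1 array), Dusp6 (-0.032 centred), Spry1 (-0.095 centred, -0.0044 to 0.042 without 1 array), Spred1 (-0.060 with quantile normalization, -0.12 centred, -0.22 with the mean of probe sets, -0.34 without _x_at and _s_at sets, -0.063 with sex, -0.093 to 0.13 without 1 array) and Spred2 (-0.14 with the mean of probe sets). Why was not tested. Members near the floor (Spry1, the second Spry2 set) carry no measurable change at this signal.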
